A study of Mus musculus with 46 samples.

Results

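The comparison described here sets XX gonads with 2 mutant copies of Enh13 against XX gonads with 1 mutant copy, in mouse embryos at E12.5. Enh13 is a remote enhancer of Sox9, and the mutation, called 1bp-ins in the labels, is an insertion of 1 base pair in it. The libraries were chosen by their titles: 3 of XX Enh13-1bp-ins-het (heterozygotes) and 5 of XX Enh13-1bp-ins-hom (homozygotes), 8 of the 46 libraries in the series. All 8 are labelled XX, come from whole gonads collected as pairs, and carry the insertion on at least 1 chromosome, so that no library of this comparison is wild type. Each library was made from poly(A) RNA. The sources used here give no strain, litter or number of founder lines, and since nothing in them says that the libraries of a group came from separate embryos, the p-values measure the spread between these libraries.

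At this stage the supporting cells of the gonad take either the Sertoli or the pregranulosa fate. In XY gonads SOX9 starts the Sertoli cell fate, and FGF9 keeps SOX9 on and holds down WNT4. In XX gonads Sox9 stays low, and WNT4 and RSPO1 act through beta-catenin, beside the transcription factor FOXL2, to make pregranulosa cells. Sertoli cells then send signals that steer other cells of the gonad: DHH to the precursors of Leydig cells, the steroid-making cells of the testis, AMH to the female duct, and CYP26B1, which removes retinoic acid, to the germ cells.

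The homozygous XX gonads had high levels of Sox9 and of most Sertoli genes and low levels of most pregranulosa genes, compared with their heterozygous counterparts. Of 15933 genes tested, 2749 (17.3%) were called at an adjusted p under 0.05 (edgeR quasi-likelihood F test, Benjamini-Hochberg over all genes tested), 1353 (8.49%) higher and 1396 (8.76%) lower in homozygotes. A difference of 2-fold or more was called for 291 genes (1.83%) that were higher and 242 (1.52%) that were lower. These counts rest on single libraries: the number called was 645 without heterozygote replicate 2, 693 without heterozygote replicate 3, 1461 without homozygote replicate 2 and 1256 without homozygote replicate 3.

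Before the results, some properties of the 8 libraries need stating. They held 31533400 to 39865800 estimated counts each, and the gonad transcription factors Nr5a1, Wt1 and Gata4 were at 225 CPM (counts scaled to library size) or more in all 8. Homozygote replicate 5 stood apart, with the highest mean level of the Sertoli list, the lowest of the pregranulosa list, and a mean of the steroidogenic list above those of the other 7 libraries. Markers of adrenal chromaffin cells were seen in part of the libraries of both groups: Dbh, which makes noradrenaline, was at 19.7 CPM in heterozygote replicate 2 and 15.9 to 16.9 CPM in homozygote replicates 1, 3 and 4, against 0.0264 to 1.62 CPM in the other 4. Cdh16, an adhesion protein of kidney and mesonephric tubules, was at 13.3 CPM in heterozygote replicate 3 and 6.32 CPM in homozygote replicate 2, and at 2.08 CPM or less elsewhere. The 5 Y-linked genes examined summed to 1.90 CPM in heterozygote replicate 1 and to 0.687 CPM or less in the others.

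Sox9 was the gene with the lowest adjusted p of all. It was at 14.4, 11.3 and 11.1 CPM in the 3 heterozygotes and at 175, 183, 221, 139 and 151 CPM in homozygote replicates 1 to 5. The lowest homozygote lay far above the highest heterozygote. The log2 fold change was 3.83 ± 0.185 (SE; adjusted p = 0.000127, edgeR), and it was called under every alternative and with any 1 library left out. On the per-length scale the level rose from 4.52 ± 0.358 TPM (counts scaled to gene length and library size; SD, n = 3) to 59.3 ± 11.4 TPM (SD, n = 5).

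Sox9 lies on the plus strand of chromosome 11 (112782224 to 112787760, GRCm38). BC006965, a noncoding gene on the other strand, starts 248 bp away in the GENCODE annotation. It was at 0.19, 0.0287 and 0 CPM in heterozygotes and at 2.88, 2.76, 5.69, 1.40 and 5.87 CPM in homozygotes, and it rose by 5.66 ± 0.873 log2 units (adjusted p = 0.0064, edgeR). The sources used here do not say how strand was handled in counting, so reads of these neighbours cannot be told apart with certainty. Another noncoding gene of the region, 2610035D17Rik, rose by 0.64 ± 0.131 (adjusted p = 0.0143), a call lost without heterozygote replicate 2 or 3 (adjusted p up to 0.0721). Of the 9 genes measured around Sox9 the other 7 missed the threshold, with log2 fold changes of -0.58 to 0.84. The 2 that rose are 22.2% of the 9, against 8.49% higher among all genes tested. Among them Map2k6, a stress kinase gene, was at -0.14 and Cog1, a Golgi gene, at 0.19.

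**Figure D1:**
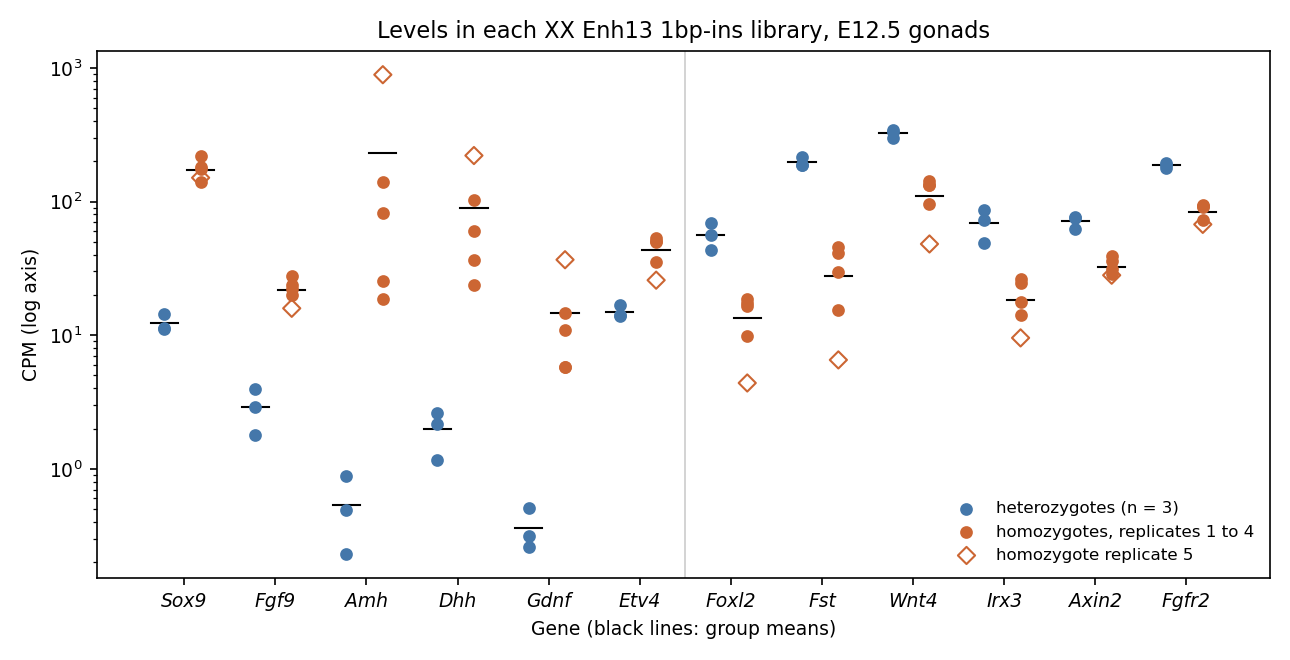
Levels of 12 genes in each library, in CPM on a log axis, with blue points for the 3 heterozygotes, orange points for homozygote replicates 1 to 4, open diamonds for homozygote replicate 5 and black lines for group means. Sox9, Fgf9, Amh, Dhh, Gdnf and Etv4 lie higher in every homozygote than in any heterozygote, and Foxl2, Fst, Wnt4, Irx3, Axin2 and Fgfr2 lie lower in every homozygote.

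Of the 22 genes of the Sertoli list 16 were higher and 0 lower in homozygotes, against 8.49% higher among all genes tested. This list and those that follow were chosen with earlier results of these data known. Their contrast with all genes is thus not an independent test. The median log2 fold change of the list was 3.73, against -0.00333 over all genes tested. In whole gonads more cells of a type and more RNA per cell cannot be told apart, for this list and for all that follow. For 17 of the 22 every homozygote lay above every heterozygote, against 13.1% of all genes tested. The count of 16 was 11 without heterozygote replicate 2, 12 without heterozygote replicate 3 and 18 without homozygote replicate 5.

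The signals made by Sertoli cells differed widely in size. Fgf9, the growth factor that works together with SOX9, was at 2.92, 3.99 and 1.79 CPM in heterozygotes and at 23.8, 22.3, 27.7, 19.8 and 15.9 CPM in homozygotes. It rose by 2.92 ± 0.28 log2 units (adjusted p = 0.00153, edgeR), and replicate 5 had the lowest homozygous level. Amh, the hormone that removes the female duct, was at 0.889, 0.488 and 0.231 CPM in heterozygotes and at 25.3, 82.4, 141, 18.7 and 889 CPM in homozygotes. Its homozygous levels ran over a far wider range than those of Sox9 or Fgf9, with replicate 5 highest, and its log2 fold change was 8.77 ± 2.11 (adjusted p = 0.0317). Dhh, the Hedgehog ligand, was at 2.60, 2.18 and 1.15 CPM and at 36.8, 60.7, 103, 23.7 and 221 CPM, a rise of 5.50 ± 0.974 (adjusted p = 0.0129). Gdnf, a growth factor for germ line stem cells, rose by 5.35 ± 0.897 (adjusted p = 0.0105), from 0.26 to 0.508 CPM in heterozygotes to 5.74 to 36.7 CPM in homozygotes. Inhbb, an activin subunit, was already at 113 to 131 CPM in heterozygotes and rose only by 0.90 ± 0.122 (adjusted p = 0.00366). The calls of Gdnf and Dhh were lost without heterozygote replicate 2 or 3 (adjusted p up to 0.0572 and 0.0642), and that of Amh without any 1 heterozygote or homozygote replicate 3 (adjusted p up to 0.12).

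Among the transcription factors, the SOX9 relatives Sox8 and Sox10 rose as well. Sox8 was at 2.51, 2.55 and 1.56 CPM in heterozygotes and at 13, 22, 29.3, 9.48 and 33.4 CPM in homozygotes (3.28 ± 0.497, adjusted p = 0.00716, edgeR). Sox10 rose by 4.38 ± 0.615 (adjusted p = 0.00604), with all homozygotes at 14.8 CPM or more and all heterozygotes at 2.52 CPM or less. Dmrt1, which keeps Sertoli cells male later in life and is also on in germ cells, was at 25.5 to 28.8 CPM and at 28.5 to 48.7 CPM, and was not called (0.47 ± 0.146, adjusted p = 0.0539).

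The other Sertoli genes of the list that rose include enzymes, matrix and membrane proteins. Cyp26b1, which degrades retinoic acid, was at 16.3, 23.7 and 35.0 CPM and at 94.3, 88.6, 150, 68.6 and 206 CPM, a rise of 2.28 ± 0.439 (adjusted p = 0.0156, edgeR) that was lost without heterozygote replicate 2 (adjusted p = 0.0721). Col9a3, a collagen chain, rose by 5.58 ± 1.29, a call lost without any 1 heterozygote or homozygote replicate 3 (adjusted p up to 0.112), and Mmd2, a membrane protein, by 5.21 ± 0.559. Tesc, a calcium-binding protein, rose by 4.93 ± 0.662, Etd by 4.49 ± 0.64, Cst9, a cystatin, by 4.33 ± 0.521, Aard by 3.64 ± 0.507 and Mro by 1.96 ± 0.283 (highest adjusted p of these 0.00598). Their groups did not overlap.

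For each of the 6 Sertoli genes that were not called, replicate 5 was the highest homozygote. This does not set them apart, since the same was so for the called genes Amh, Dhh, Gdnf, Sox8 and Cyp26b1, though not for Sox9 or Fgf9. Ptgds, the prostaglandin D synthase gene, was at 1.06 to 1.27 CPM in heterozygotes and at 6.61, 11.4, 16.6, 4.28 and 98.7 CPM in homozygotes (4.53 ± 1.34, adjusted p = 0.0559, edgeR). Hsd17b1, which activates sex steroids, was at 11.3 CPM in replicate 5 and at 0.171 to 1.13 CPM in the other homozygotes (3.17 ± 1.58). Vnn1, a pantetheinase gene, was at 38.5 CPM in replicate 5 and at 4.74 to 8.37 CPM in the other homozygotes (1.21 ± 0.783). Cldn11, the tight junction gene of Sertoli cells, was at 32.1 CPM in replicate 5, with the other 4 homozygotes at 9.94 to 13.1 CPM, below the 14.1 to 14.2 CPM of the heterozygotes (0.17 ± 0.377). Pdgfa, a growth factor gene, was at 0.75 ± 0.304 and Dmrt1 is described above. Ptgds and Dmrt1 were called without homozygote replicate 4 or 5, and Pdgfa without replicate 4.

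Of the 17 genes of the pregranulosa list 13 were lower and 0 higher in homozygotes, against 8.76% lower among all genes tested, and the median log2 fold change was -1.21. For 15 of the 17 every homozygote lay below every heterozygote, against 13.5% of all genes tested. The count of 13 was 8 without heterozygote replicate 2 or 3, and 15 without homozygote replicate 5. Foxl2, the transcription factor of pregranulosa cells, was at 68.8, 55.7 and 43.4 CPM in heterozygotes and at 16.5, 17.5, 9.94, 18.6 and 4.39 CPM in homozygotes. It fell by 2.07 ± 0.416 log2 units (adjusted p = 0.0183, edgeR), and replicate 5 had the lowest level. Fst, an activin antagonist, was at 215, 189 and 188 CPM and at 46.1, 29.5, 15.3, 41.5 and 6.53 CPM, and fell by 2.83 ± 0.536 (adjusted p = 0.0149). The homeobox genes Irx3 and Irx5 fell by 1.91 ± 0.33 (adjusted p = 0.0112) and 1.67 ± 0.325 (adjusted p = 0.0119). Msx1 and Msx2, homeobox genes that answer to BMP signals, both fell by 1.41 (SE 0.398 and 0.225), and the ligand gene Bmp2 by 1.21 ± 0.289. The calls of Fst and Foxl2 were lost without heterozygote replicate 2 or 3 (adjusted p up to 0.0582 and 0.0658), that of Foxl2 also without heterozygote replicate 1, that of Bmp2 without any 1 heterozygote or homozygote replicate 3 (up to 0.0966), and that of Msx1 without any 1 library except homozygote replicate 5 (up to 0.129).

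Wnt4, the main WNT ligand of the early ovary, was at 342, 301 and 331 CPM in heterozygotes and at 132, 133, 96.5, 142 and 48.1 CPM in homozygotes, and fell by 1.56 ± 0.31 log2 units (adjusted p = 0.0175, edgeR). That call was lost without heterozygote replicate 2 or 3 (adjusted p up to 0.0671). Rspo1, which strengthens WNT signals at the receptor, fell by 0.94 ± 0.181 (adjusted p = 0.0135), from 58.9 to 72.9 CPM to 21.9 to 40.5 CPM. Axin2, a feedback inhibitor and common readout of the pathway, was at 76.5, 75.2 and 62.5 CPM and at 31.3, 35.9, 28.9, 38.8 and 28.1 CPM, and fell by 1.13 ± 0.116 (adjusted p = 0.00153). Lef1, a DNA-binding partner of beta-catenin, fell by 1.09 ± 0.161 (adjusted p = 0.00544). Sp5 and Nkd1, also targets of the pathway, missed the threshold, at -1.19 (adjusted p = 0.0689) and -0.50 (adjusted p = 0.183), although no homozygote reached the level of a heterozygote for Sp5, which was called without homozygote replicate 4 or 5.

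Of 14 other genes of WNT signalling 4 were lower and 1 higher in homozygotes, against 8.76% and 8.49% of all genes tested. With all 12 groups of the series in 1 fit the counts were 2 lower and 2 higher, without homozygote replicate 4 they were 4 lower and 3 higher, and without heterozygote replicate 2 or 3 or homozygote replicate 3 they were 2 lower and 1 higher. Wnt9a, a ligand, fell by 1.90 ± 0.405, Rnf43, which removes WNT receptors, by 1.07 ± 0.183, Notum, a secreted inhibitor, by 0.92 ± 0.203, and Apcdd1, another inhibitor, by 0.71 ± 0.0773 (highest adjusted p of the 4, 0.0215, edgeR). The calls of Wnt9a and Notum were lost without heterozygote replicate 2 or 3 or homozygote replicate 3 (adjusted p up to 0.0819 and 0.0901). Fzd9, a WNT receptor, went the other way, from 1.46 to 1.5 CPM in heterozygotes to 12.2, 14.6, 21.8, 8.65 and 35.7 CPM in homozygotes (3.65 ± 0.524, adjusted p = 0.00604). Ctnnb1, which encodes beta-catenin itself, was not called (0.11 ± 0.0675).

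Further pregranulosa genes of the list were lower in part. Cdkn1b, a cell cycle inhibitor that marks resting pregranulosa cells, was at 216, 191 and 165 CPM and at 81.2, 73.5, 58.4, 80.2 and 56.0 CPM, and fell by 1.45 ± 0.143 log2 units (adjusted p = 0.00153, edgeR). Kitl, the KIT ligand for germ cells, fell by 0.98 ± 0.0903 (adjusted p = 0.00107), from 760 to 852 CPM to 369 to 481 CPM. Runx1, a transcription factor of the ovarian supporting cells, was not called (-0.78 ± 0.392, adjusted p = 0.203), and it was called without homozygote replicate 5. Lgr5, an R-spondin receptor, was the only gene of the list with a positive value (0.84 ± 0.33, adjusted p = 0.117), and its groups overlapped. Lgr5 was called higher without homozygote replicate 4.

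**Figure D2:**
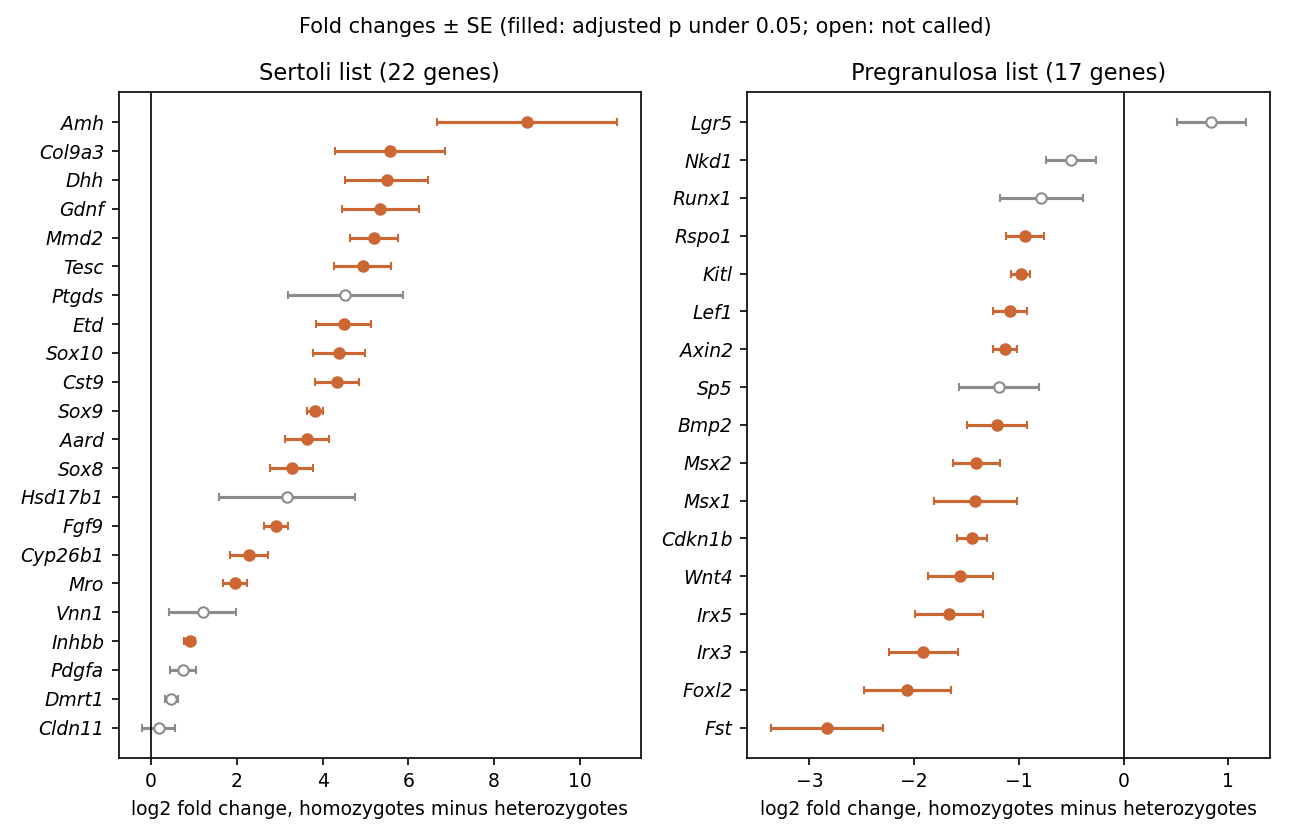
Log2 fold change (homozygotes minus heterozygotes) with its standard error for the 22 Sertoli and 17 pregranulosa genes, where filled points are genes called at an adjusted p under 0.05 and open points are not called. The Sertoli genes run from 0.17 (Cldn11) to 8.77 (Amh) with all values positive, and the pregranulosa genes from -2.83 (Fst) to 0.84 (Lgr5) with all but Lgr5 negative.

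Homozygous libraries did not all lie equally far from the heterozygotes. The mean log2 CPM of the Sertoli list was 1.81, 1.78 and 1.39 in heterozygotes and 4.25, 4.66, 5.11, 3.90 and 6.04 in homozygotes. The mean of the pregranulosa list was 6.23, 6.04 and 5.90 in heterozygotes and 4.98, 5.05, 4.55, 5.09 and 3.98 in homozygotes. Replicate 4 had the lowest Sertoli and highest pregranulosa mean of the homozygotes, replicate 5 the reverse, and neither list overlapped between the groups. The Sertoli mean minus the pregranulosa mean was -4.42, -4.26 and -4.51 in heterozygotes and -0.73, -0.39, 0.563, -1.19 and 2.06 in homozygotes, so that the order of the homozygotes was replicate 4 lowest, then 1, 2, 3 and 5. The spread among homozygotes was not in the order of their Sox9 levels, since replicate 5 had less Sox9 than replicates 1, 2 and 3.

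**Figure D3:**
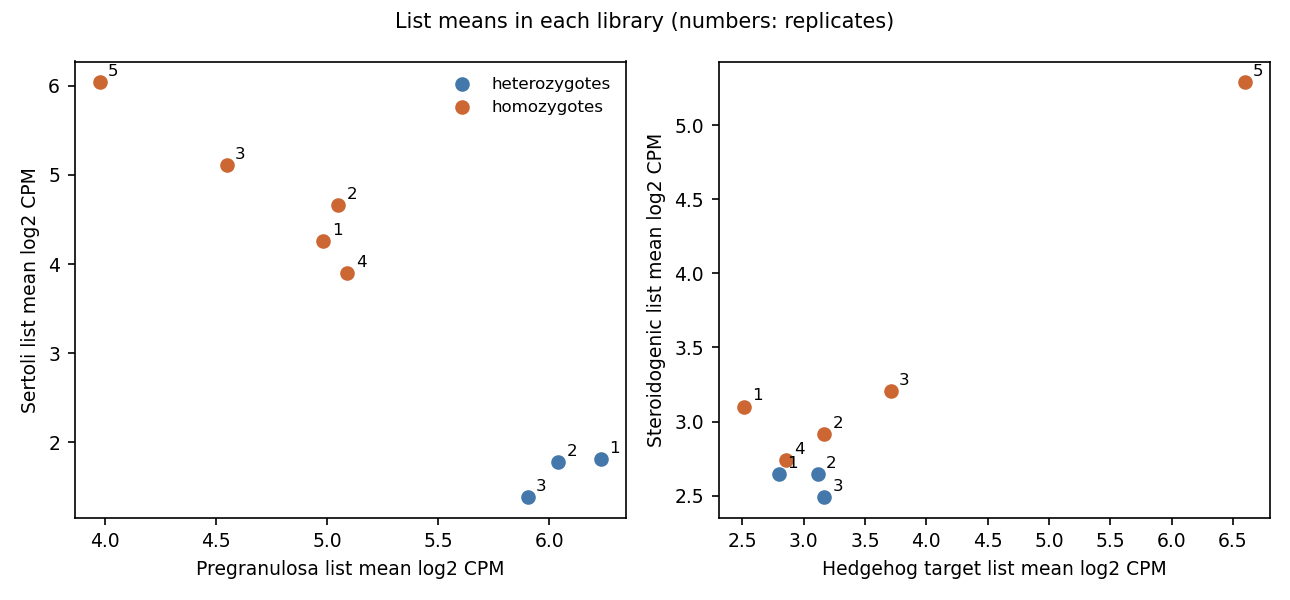
Mean log2 CPM of gene lists in each of the 8 libraries, with the Sertoli list against the pregranulosa list on the left and the steroidogenic list against the Hedgehog target list on the right, blue for heterozygotes, orange for homozygotes and numbers for replicates. On the left the homozygotes lie apart from the heterozygotes, and on the right only homozygote replicate 5 lies apart, at 5.29 for the steroidogenic list against 2.49 to 3.21 in the other 7 libraries.

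FGF9 acts through receptor tyrosine kinases, and cells that receive such a signal turn on the ETV4 and ETV5 transcription factors and the inhibitors of the Sprouty, SPRED and DUSP families. Of the 13 genes of the FGF list 6 were higher and 1 lower in homozygotes, against 8.49% and 8.76% of all genes tested, with a median log2 fold change of 0.53. Etv4 was at 14.2, 16.8 and 14.0 CPM in heterozygotes and at 50.8, 49.6, 53.6, 35.5 and 25.8 CPM in homozygotes, and rose by 1.52 ± 0.245 (adjusted p = 0.00791, edgeR). Spry4 was at 14.3, 16.8 and 15 CPM and at 40, 49.2, 52, 34 and 36.7 CPM, and rose by 1.47 ± 0.152 (adjusted p = 0.00153). For Etv4 replicate 5 had the lowest homozygous level, as for Fgf9. Etv5 rose by 0.99 ± 0.136, Dusp6, a phosphatase that turns off ERK, by 0.95 ± 0.103, Spry2 by 0.53 ± 0.131 and Spred1 by 0.35 ± 0.0666. The calls of Spry2 and Spred1 were lost without heterozygote replicate 2 or 3 (adjusted p up to 0.105 and 0.0591), and that of Spry2 also without heterozygote replicate 1 or homozygote replicate 2 or 3. Fgfr2, the receptor through which FGF9 acts on the supporting cells, went the other way, from 195, 186 and 180 CPM to 94.9, 91.7, 72.2, 92.6 and 67.5 CPM (-1.16 ± 0.116, adjusted p = 0.00153).

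The promoters of 4 of these genes are shown as the 250 bases before the transcription start, 5′ to 3′ along the gene, from RefSeq on GRCm38.p6. Fgf9 and Foxl2 stand for the sides that rose and fell, and Dusp6 and Nrarp are list genes that rose and whose window holds AACAAT, a core of the sites that SOX proteins bind, or its reverse complement ATTGTT, which is in capitals.
Fgf9, chr14:58072436-58072685, plus strand: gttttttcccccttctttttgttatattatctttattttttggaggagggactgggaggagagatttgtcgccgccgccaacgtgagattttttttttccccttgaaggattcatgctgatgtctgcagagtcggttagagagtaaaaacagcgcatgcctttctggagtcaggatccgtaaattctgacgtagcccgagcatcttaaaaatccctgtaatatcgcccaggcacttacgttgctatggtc
Foxl2, chr9:98955357-98955606, plus strand: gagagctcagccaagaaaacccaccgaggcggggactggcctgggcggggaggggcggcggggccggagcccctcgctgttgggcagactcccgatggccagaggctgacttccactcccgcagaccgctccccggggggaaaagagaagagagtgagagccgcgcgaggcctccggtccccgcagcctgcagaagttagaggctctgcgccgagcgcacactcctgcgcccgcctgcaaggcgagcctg
Dusp6, chr10:99262981-99263230, plus strand: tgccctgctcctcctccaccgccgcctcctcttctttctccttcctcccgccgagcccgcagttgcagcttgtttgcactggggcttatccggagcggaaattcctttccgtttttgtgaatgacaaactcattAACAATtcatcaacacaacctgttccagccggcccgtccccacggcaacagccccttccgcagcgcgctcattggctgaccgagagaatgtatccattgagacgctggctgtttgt
Nrarp, chr2:25180508-25180757, plus strand: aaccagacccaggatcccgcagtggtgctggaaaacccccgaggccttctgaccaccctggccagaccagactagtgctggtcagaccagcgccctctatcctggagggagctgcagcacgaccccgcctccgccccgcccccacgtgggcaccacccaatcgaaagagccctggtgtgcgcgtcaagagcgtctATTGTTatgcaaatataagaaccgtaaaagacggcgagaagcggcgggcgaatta

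The motif starts 116 bases before the start of Dusp6 and 55 bases before that of Nrarp. It was searched on both strands in the windows from 250 bases before to 50 bases after the start, which the table held once for 9620 of the 15933 genes tested. It was found in 570 of them (5.93%), in 42 of 849 windows of genes called higher (4.95%) and in 51 of 844 windows of genes called lower (6.04%). Of the 11 Sertoli and 11 pregranulosa genes with a window 0 held it. These shares describe the letters of these windows only.

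NOTCH signalling, which acts between supporting and interstitial cells, had 4 of 14 genes higher and 0 lower, against 8.49% higher and 8.76% lower among all genes tested. Without homozygote replicate 5 the counts were 4 higher and 3 lower, and without heterozygote replicate 2 or 3 they were 1 higher and 0 lower. Hes1, its main target gene, was at 25.0, 29.2 and 25.6 CPM and at 40.5, 51.1, 52.3, 46 and 52.8 CPM, a rise of 0.87 ± 0.102 log2 units (adjusted p = 0.00219, edgeR). Nrarp, a target and inhibitor, rose by 0.49 ± 0.105, Lfng, which modifies the receptors, by 0.51 ± 0.139 and Hes5 by 2.0 ± 0.593. The calls of Nrarp, Lfng and Hes5 were lost without heterozygote replicate 2 or 3 (adjusted p up to 0.0847, 0.126 and 0.15), and those of Lfng and Hes5 also without heterozygote replicate 1 or homozygote replicate 2 or 3, while Hes5 was also lost without homozygote replicate 5.

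Hedgehog signals from Sertoli cells are read by PTCH1 on interstitial cells, which then turn on targets that include Gli1, Ptch1 and Hhip. Of these 3 targets 0 were called by edgeR in the 8 libraries, 1 had an unadjusted p under 0.05, and DESeq2 called 1, which in both was Gli1. With all 12 groups of the series in 1 fit, edgeR called 2 of the 3 higher, Gli1 and Ptch1. The ligand gene Dhh rose, as given above. Gli1, an activator, was at 3.24, 4.05 and 6.47 CPM in heterozygotes and at 6.80, 14.3, 19.6, 11.6 and 42.7 CPM in homozygotes (2.05 ± 0.621, adjusted p = 0.0588, edgeR). Ptch1, the receptor, was at 36.8, 43.1 and 38.6 CPM and at 45.0, 59.1, 91.7, 45.3 and 220 CPM (1.22 ± 0.572, adjusted p = 0.176). Neither overlapped between groups, and replicate 5 was highest for both. Hhip, a membrane protein that binds Hedgehog ligands, was at 2.70, 3.62 and 2.80 CPM in heterozygotes and at 0.541, 0.794, 1.18, 0.657 and 96.0 CPM in homozygotes (2.71 ± 2.04, adjusted p = 0.392). Its level was thus below all heterozygotes in 4 homozygotes and far above them in replicate 5. Without replicate 5 the sign of the difference turned, and Hhip was called lower in homozygotes (-1.93, adjusted p = 0.00284). Gli1 was called higher without homozygote replicate 1 or 5 (adjusted p down to 0.0321).

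Of 9 other tested genes of the Hedgehog pathway 4 were lower and 1 higher, against 8.76% lower and 8.49% higher among all genes tested. The 1 that was higher is 11.1% of the 9, near the share over all genes. Cdon and Boc, co-receptors that bind the ligand, fell by 0.65 ± 0.095 (adjusted p = 0.00438, edgeR) and 0.63 ± 0.0938 (adjusted p = 0.00456), Disp1, which releases the ligand, by 0.46 ± 0.08 and Sufu, an inhibitor of the GLI factors, by 0.30 ± 0.0628. Gli2, the main GLI activator, rose by 0.57 ± 0.158 (adjusted p = 0.0412). The call of Sufu was lost without heterozygote replicate 2 or 3 (adjusted p up to 0.0634), and that of Gli2 without any 1 heterozygote or homozygote replicate 2 or 3 (up to 0.138).

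Of the 12 genes of the steroidogenic list 1 (8.33%) was higher and 0 lower, against 8.49% and 8.76% of all genes tested. The share that was higher is thus that of all genes. Several of the other list genes were high in homozygote replicate 5 alone. The counts were 3 higher and 1 lower without replicate 5, 2 higher without replicate 4, and 0 without any 1 heterozygote. With all 12 groups of the series in 1 fit 7 were higher, and DESeq2 called 3 higher. Hsd17b3, the last enzyme towards testosterone and in the fetal testis a Sertoli cell gene, was at 0.19, 0.115 and 0.0577 CPM in heterozygotes and at 3.02, 4.38, 7.52, 1.11 and 21.5 CPM in homozygotes, a rise of 5.94 ± 1.28 log2 units (adjusted p = 0.022, edgeR) that was lost without any 1 heterozygote (adjusted p up to 0.0949). Cyp17a1, the enzyme that commits steroids to androgens, was at 0.606 to 1.29 CPM in heterozygotes, 0.626 to 0.85 CPM in homozygote replicates 1 to 4 and 64.4 CPM in replicate 5. Insl3, a Leydig cell hormone, was at 17.5 CPM in replicate 5 and at 0.0952 to 0.484 CPM in the other 7 libraries. Hsd3b1, another enzyme of the path, was at 76.9 CPM in replicate 5 and at 2.57 to 9.35 CPM in the others. Replicate 5 was thus the library with the highest levels of Amh, Dhh, Gli1, Ptch1, Hhip, Cyp17a1, Insl3 and Hsd3b1. Dbh was 0.0264 CPM and Th, which starts catecholamine synthesis, 0.238 CPM in it, against 8.82 CPM of Th in homozygote replicate 4, the highest. The whole adrenal list, which also holds genes of the adrenal cortex, summed to 7.93 CPM in replicate 5. In the other 7 libraries it summed to 3.78 to 54.1 CPM. Dbh and Th mark chromaffin cells, and the cortex genes are not given singly here. These levels thus do not show how the cortex genes stood in replicate 5. The source of the steroidogenic RNA in replicate 5 was not tested. Star, which carries cholesterol into mitochondria, was not called (1.19 ± 0.399, adjusted p = 0.076), though its groups did not overlap, and it was called without replicate 5.

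Germ cells of XX gonads enter meiosis about a day later, while those of XY gonads stop dividing and pass through a phase of NODAL signalling. Of 15 general germ cell genes 0 were called by edgeR, 4 had an unadjusted p under 0.05, and DESeq2 called 2 higher. Without homozygote replicate 4, edgeR called 6 of the 15 higher. Pou5f1 was at 76.3, 86.2 and 79.9 CPM in heterozygotes and at 107, 95.1, 92.6, 48.3 and 93.8 CPM in homozygotes. Replicate 4 had the lowest germ cell list mean of the homozygotes, 4.24 against 4.96 to 5.06. Of the 4 tested genes of the male germ cell list 3 were higher and 0 lower, against 8.49% and 8.76% of all genes tested. Lefty2, a target and inhibitor of NODAL, was at 1.90, 1.32 and 3.98 CPM and at 19.1, 25.1, 42.8, 9.79 and 56.0 CPM, a rise of 3.67 ± 0.698 log2 units (adjusted p = 0.0152, edgeR). Lefty1, its close relative, was at 0.793, 0.43 and 0.866 CPM and at 5.18, 7.56, 9.29, 2.68 and 19.7 CPM, also a rise of 3.67 (SE 0.712, adjusted p = 0.0149). Nodal itself rose by 1.21 ± 0.33 (adjusted p = 0.0366), with overlap between the groups. All 3 calls were lost without heterozygote replicate 2 (adjusted p up to 0.142), those of Lefty1 and Nodal also without heterozygote replicate 3, and that of Nodal also without heterozygote replicate 1 or homozygote replicate 2 or 3. Piwil4, a piRNA factor, was not called (-0.42 ± 0.638), but was called lower without homozygote replicate 5.

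Of 10 tested meiosis genes 0 were called by edgeR, 1 had an unadjusted p under 0.05, and DESeq2 called 1. That 1 was Rec8, called lower. Most of the list went the other way, with 7 of the 10 positive, 3 negative and a median log2 fold change of 0.344. Smc1b, another gene of the list, was called higher without homozygote replicate 4 (adjusted p = 0.044, edgeR). Rec8, a meiotic cohesin that retinoic acid turns on, was lower in all homozygotes (70.4, 65.9 and 57.1 CPM against 44.9, 38.5, 26, 37.5 and 15.3 CPM), but was not called by edgeR (-0.99 ± 0.305, adjusted p = 0.0611). The call was made by edgeR as well without homozygote replicate 1 or 5 (adjusted p down to 0.0138). Among 14 tested genes of retinoic acid metabolism and reception 2 were higher and 1 lower, against 8.49% and 8.76% of all genes tested. Without homozygote replicate 4 the counts were 2 higher and 5 lower, and without any 1 heterozygote or homozygote replicate 2 they were 0 and 0. Aldh1a1, which makes retinoic acid, was at 73.9, 65.0 and 47.1 CPM and at 155, 193, 252, 134 and 618 CPM (2.12 ± 0.559, adjusted p = 0.0398). Cyp26a1, a degrading enzyme like Cyp26b1, was called higher (adjusted p = 0.0236), with 1.08, 1.18, 0.412, 1.06 and 0.0793 CPM in homozygotes and 0.0574 CPM or less in heterozygotes. Dhrs3, which lowers retinoic acid by reducing retinal, fell by 0.63 ± 0.169 (adjusted p = 0.0365). The calls of Aldh1a1, Cyp26a1 and Dhrs3 were lost without any 1 heterozygote or homozygote replicate 2 (adjusted p up to 0.147, 0.0934 and 0.136), and those of Aldh1a1 and Dhrs3 also without homozygote replicate 3, that of Dhrs3 also without homozygote replicate 1. Aldh1a2, the main enzyme of synthesis in the mesonephros, was not called (-0.34 ± 0.126).

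Of 14 genes of the early gonad, which both sexes share, 2 were higher and 2 lower, against 8.49% and 8.76% of all genes tested. Leaving out 1 library at a time gave 1 or 2 higher and 0 to 3 lower. Nr5a1, which drives steroid genes and acts with SOX9, was at 263, 225 and 232 CPM and at 395, 418, 426, 324 and 373 CPM, and rose by 0.69 ± 0.0993 log2 units (adjusted p = 0.00427, edgeR). Gata4, its partner, rose by 0.36 ± 0.0897 (adjusted p = 0.0268). Emx2, a homeobox gene of the gonadal epithelium, fell by 0.87 ± 0.244 (adjusted p = 0.046) and Insr, the insulin receptor gene, by 0.52 ± 0.11 (adjusted p = 0.015). The calls of Gata4, Emx2 and Insr were lost without heterozygote replicate 2 or 3 (adjusted p up to 0.114, 0.128 and 0.0751), those of Gata4 and Emx2 also without homozygote replicate 2 or 3, and that of Emx2 also without heterozygote replicate 1 or homozygote replicate 1. Wt1 was not called (-0.17 ± 0.178), and was lowest in replicate 5 (298 CPM against 475 to 560 CPM in the other 7 libraries).

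Most genes of the cell cycle list rose, by small amounts. Of 15 genes 10 were higher and 0 lower, against 8.49% and 8.76% of all genes tested, with a median log2 fold change of 0.35. Cdk1, the kinase of mitosis, was at 89.9, 84.4 and 88.4 CPM in heterozygotes and at 119, 134, 135, 112 and 150 CPM in homozygotes, a rise of 0.57 ± 0.0947 (adjusted p = 0.00689, edgeR). Pcna, the clamp of DNA replication, was at 232, 225 and 233 CPM and at 309, 361, 365, 314 and 301 CPM, a rise of 0.52 ± 0.08 (adjusted p = 0.00517). Mki67, a proliferation marker with a long transcript, was not called (-0.17 ± 0.228) and was lower in heterozygote replicate 1 than in replicates 2 and 3 (179 against 323 and 315 CPM). The list count was 5 without heterozygote replicate 2 and 4 without heterozygote replicate 3.

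Smaller groups followed. Of 9 tested immediate early genes 3 were higher: Jun by 0.64 ± 0.0871, Ier2 by 0.49 ± 0.0778 and Nr4a1 by 1.07 ± 0.274. Of 16 cholesterol synthesis genes 5 were higher and 0 lower, with Nsdhl, a demethylating enzyme, up by 0.71 ± 0.0842 (adjusted p = 0.00219, edgeR). Of 12 basement membrane genes 3 were lower, the laminin chains Lama5, Lama1 and Lamb2, by 0.75 ± 0.166, 0.61 ± 0.134 and 0.55 ± 0.124. Of 18 tested BMP and activin genes 1 was higher, the receptor Acvr1 (0.51 ± 0.0986), and 2 were lower, the ligand Bmp5 (-1.39 ± 0.393) and the receptor Bmpr1a (-0.23 ± 0.0647). These are 5.56% and 11.1% of the 18, near the shares over all genes. The cholesterol count was 1 without any 1 heterozygote or homozygote replicate 2, and 2 without homozygote replicate 1 or 3. The basement membrane count was 0 without heterozygote replicate 2 or 3, 1 without homozygote replicate 3, 2 without homozygote replicate 2, and 6 without heterozygote replicate 1 or homozygote replicate 5. The calls of Nr4a1, Bmp5 and Bmpr1a were lost without heterozygote replicate 2 or 3 or homozygote replicate 2 or 3 (adjusted p up to 0.126, 0.166 and 0.159), those of Bmp5 and Bmpr1a also without homozygote replicate 1, those of Nr4a1 and Bmp5 also without heterozygote replicate 1, and that of Bmp5 also without homozygote replicate 5. The call of Acvr1 was lost without heterozygote replicate 3 (adjusted p = 0.0513).

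Markers of other cell types are given beside the 8.49% higher and 8.76% lower among all genes tested. Tcf21, a transcription factor of the stroma, was at 80.4, 105 and 102 CPM and at 145, 174, 193, 186 and 219 CPM, and rose by 0.94 ± 0.137 log2 units (adjusted p = 0.00471, edgeR), the only one of 11 stromal genes called. Efnb2, an arterial ephrin, rose by 0.53 ± 0.101 (adjusted p = 0.011), the only one of 15 endothelial genes called, while 13 of the 15 had negative values and 4 were called lower without heterozygote replicate 1. Of 13 macrophage genes 0 were called by edgeR or DESeq2, 1 had an unadjusted p under 0.05, and all 13 had negative values. Without homozygote replicate 4, edgeR called 3 of them lower. The list had summed levels of 105 to 124 CPM in heterozygotes and 59.7 to 134 CPM in homozygotes. In the erythroid (10 tested), mesonephros (7), adrenal (6) and surface epithelium (4) lists edgeR called 0 genes in the 8 libraries, and 1, 3, 0 and 0 had an unadjusted p under 0.05. DESeq2 called 3 mesonephros genes, 1 higher and 2 lower, and 0 of the other lists. Without homozygote replicate 4, edgeR called 2 surface epithelium genes lower and 1 mesonephros gene higher. Without homozygote replicate 1 or 5 it called 1 mesonephros gene lower. With all 12 groups of the series in 1 fit 1 erythroid gene was called higher. With a block for replicate number 1 erythroid gene was higher and 1 surface epithelium gene lower. Xist, the RNA that silences an X chromosome, was called lower (-0.62 ± 0.177, adjusted p = 0.0453) but the groups overlapped, since heterozygote replicate 1 was at 54.6 CPM and replicates 2 and 3 at 94.9 and 91.8 CPM, and the call was lost without any 1 library except heterozygote replicate 1 (adjusted p up to 0.171).

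Genes outside the lists were named by rank of fold change or of adjusted p. Those that rose most beside the Sertoli genes were Cbln1 and Cbln4, secreted cerebellins, by 4.98 ± 1.13 and 3.99 ± 0.547 log2 units, Ankrd63 by 4.69 ± 1.08, Mt3, a metallothionein, by 4.03 ± 0.566, Prokr2, a receptor for prokineticins, by 3.92 ± 0.887, and Dusp15, a phosphatase, by 3.70 ± 0.323 (highest adjusted p of these 0.0276, edgeR). Cbln1 was at 1.94 to 2.67 CPM in heterozygotes and at 25.1, 32.7, 62.8, 16 and 223 CPM in homozygotes. Its order over the homozygotes was that of Amh, with replicate 4 lowest and replicate 5 highest. The calls of Cbln1, Ankrd63 and Prokr2 were lost without heterozygote replicate 1 or 3 or homozygote replicate 3 (adjusted p up to 0.107, 0.109 and 0.1), and those of Cbln1 and Ankrd63 also without heterozygote replicate 2.

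Other genes, chosen for the lowest adjusted p among those that rose, did so by smaller amounts. That choice favours genes with little spread, and calls that last when a library is left out. Tox2, a nuclear factor, was at 1.59, 2.73 and 1.76 CPM and at 18.5, 18.8, 18.3, 17.8 and 10.2 CPM (3.04 ± 0.27, adjusted p = 0.00109, edgeR). Kif19a, a kinesin, rose by 3.47 ± 0.33, Gldn, gliomedin, by 2.29 ± 0.187, Pla2g5, a phospholipase, by 1.79 ± 0.134, Gas7 by 1.52 ± 0.14, Lmo4, a LIM-domain cofactor, by 1.25 ± 0.11, Nudt19 by 1.17 ± 0.0955 and Pgp, a phosphatase, by 1.06 ± 0.0938. These 8 and Dusp15 kept their calls with any 1 library left out.

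Among genes that fell most were Slc7a11, the cystine transporter, and Stum, with Insyn2b, Rnf152, a ubiquitin ligase, Csgalnact1, which starts chondroitin chains, Cacna1i, a calcium channel, Cd83, Ryr2, a calcium release channel, Klhdc7a and Sstr3, a somatostatin receptor. Slc7a11 was at 30.8, 25.0 and 36.7 CPM and at 8.37, 2.44, 3.53, 5.42 and 1.48 CPM, and fell by 2.86 ± 0.481 log2 units (adjusted p = 0.0106, edgeR). Stum was at 65.5, 60.3 and 48.8 CPM and at 13.8, 12.4, 7.60, 17.6 and 3.12 CPM, and fell by 2.42 ± 0.451 (adjusted p = 0.0144). The other 8 fell by 1.79 (Sstr3) to 2.30 (Insyn2b). The calls of Stum, Insyn2b, Ryr2, Klhdc7a and Sstr3 were lost without heterozygote replicate 2 or 3 (adjusted p up to 0.0568, 0.0935, 0.0787, 0.116 and 0.0675), those of Insyn2b, Ryr2 and Klhdc7a also without homozygote replicate 2 or 3, those of Insyn2b and Klhdc7a also without heterozygote replicate 1, and that of Klhdc7a also without homozygote replicate 4.

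The genes with the lowest adjusted p among those that fell had tight groups. A choice by p favours such groups, and calls that last when a library is left out. Cgn, cingulin of the tight junction, was at 213, 194 and 184 CPM and at 68.6, 55.8, 47.9, 59.6 and 41.8 CPM, and fell by 1.85 ± 0.142 log2 units (adjusted p = 0.000918, edgeR). Ahnak, a large scaffold protein, fell by 1.33 ± 0.114, Slc35g1 by 1.23 ± 0.108, Slc16a10, an amino acid transporter, by 1.15 ± 0.0896, Igf1, a growth factor, by 1.13 ± 0.101, Kat6b, a histone acetyltransferase, by 1.06 ± 0.087, Pcdh18, a protocadherin, by 0.94 ± 0.0731, Tgfa, an EGF receptor ligand, by 0.88 ± 0.0776 and Dennd4c by 0.68 ± 0.0647. All 9 kept their calls with any 1 library left out.

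Sox9 was not called for the same genotype difference in XY gonads. In XY Enh13-1bp-ins homozygotes (n = 5) against heterozygotes (n = 3), libraries that are not among the 8, its log2 fold change was 0.10 ± 0.0925 (adjusted p = 0.519, edgeR) and 1958 of 15596 genes (12.6%) were called. The difference between the XX and the XY effect was tested as an interaction over the 16 libraries, and 977 of 16355 genes (5.97%) were called, 630 (3.85%) more positive and 347 (2.12%) more negative in XX. For Sox9 that difference was 3.73 ± 0.2 log2 units (adjusted p = 8.42e-08). Of the 22 Sertoli genes 16 were more positive in XX and 0 more negative, of the 17 pregranulosa genes 8 were more negative and 0 more positive, and of the 13 FGF genes 6 were more positive and 1 more negative. The count of 977 was 531 without heterozygote replicate 1 and 651 without homozygote replicate 3 of XX, 512 and 583 without heterozygote replicates 2 and 3 of XY, and 1553 without homozygote replicate 4 of XX.

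The 10 genes of lowest adjusted p in that interaction were Sox9, Gas7, Tox2, Fstl4, Gldn, Spry4, Pla2g5, Fgf9, Espn and Islr2. Fgf9 differed by 2.95 ± 0.292 (adjusted p = 8.08e-05, edgeR), and in XY it was not called (-0.04 ± 0.113). Gldn rose in XX and fell in XY (-0.89 ± 0.205, adjusted p = 0.0273), with a difference of 3.17 ± 0.3 (adjusted p = 6.85e-05). Gas7 fell in XY as well (-0.51 ± 0.115, adjusted p = 0.0193), and so did Spry4 (-0.29 ± 0.0841, adjusted p = 0.0458). Fst and Foxl2 missed the threshold in the interaction (-3.39 ± 0.979, adjusted p = 0.0585, and -2.48 ± 0.708, adjusted p = 0.0553), with values in XY of 0.56 and 0.40 that were not called. Of the genes called higher in XX and tested in both, 202 (15%) were also called higher in XY, 26.2% of those higher in XY, and 68 were called lower there. Of those called lower in XX 339 (25.3%) were called lower in XY, 28.6% of those lower in XY, and 5 higher. Among all genes tested in XY, 4.96% were called higher and 7.6% lower.

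**Figure D4:**
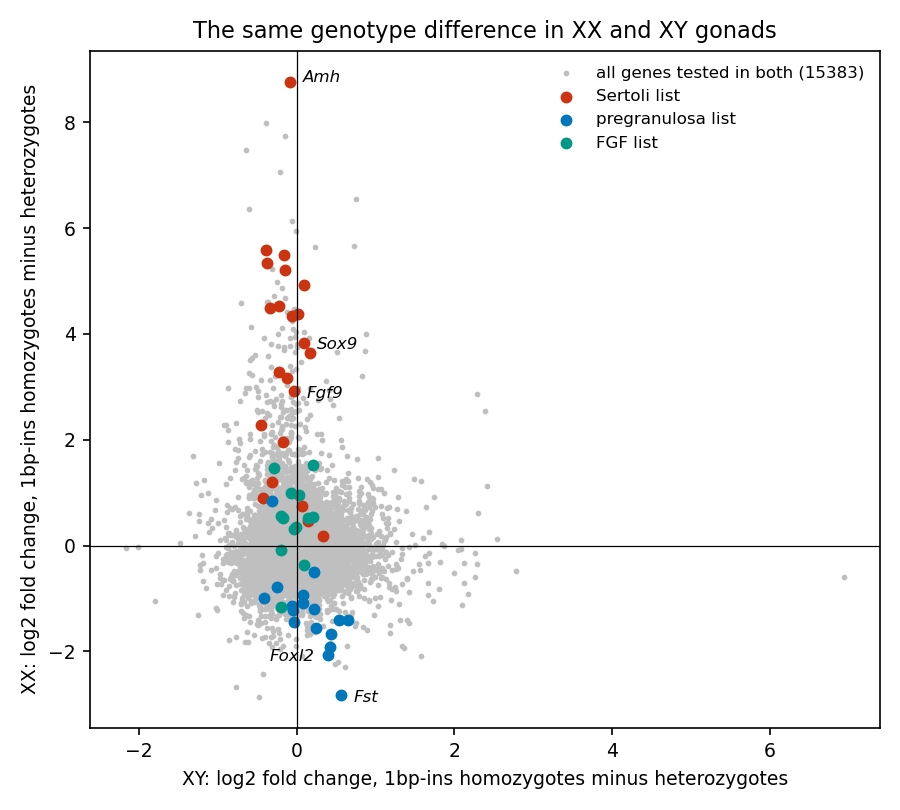
Log2 fold change of homozygotes minus heterozygotes in XX (vertical) against the same in XY (horizontal), 1 point for each of 15383 genes tested in both, with the Sertoli list in red, the pregranulosa list in blue and the FGF list in green. The Sertoli genes spread upwards to 8.77 in XX, while Sox9 is at 3.83 in XX and 0.10 in XY, and no library is shared by the axes.

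A comparison of the same kind exists for another Enh13 allele, called 3bp-del, with 5 XX homozygotes and 3 XX heterozygotes. There 4326 of 15979 genes (27.1%) were called by edgeR. The effects of the alleles were tested against each other over 16 libraries with none in common, and 13 of 16396 genes (0.0793%) were called, 2 (0.0122%) more positive and 11 (0.0671%) more negative for the 1bp-ins allele. DESeq2 called 175. No Sertoli, pregranulosa or FGF gene was among the 13. For Sox9 the difference of the effects was -0.00381 ± 0.211 log2 units (adjusted p = 0.998), with 3.85 ± 0.133 for 3bp-del, and for Amh it was 2.48 ± 2.79 (adjusted p = 0.835). Of the genes called higher for 1bp-ins and tested in both, 911 (67.8%) were called higher for 3bp-del, 41.0% of those higher there, and 0 lower. Of those called lower 867 (62.2%) were called lower for 3bp-del, 41.6% of those lower there, and 8 higher. Among all genes tested for 3bp-del, 14% were called higher and 13.1% lower.

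The 10 named genes that differed between the alleles were all more negative for 1bp-ins. Kmt2d, a histone methyltransferase, fell in 1bp-ins homozygotes (-0.47 ± 0.0808, adjusted p = 0.00786, edgeR) and rose in 3bp-del homozygotes (0.55 ± 0.0648, adjusted p = 0.000244), a difference of -0.997 ± 0.103 (adjusted p = 0.000683). Crebbp, a histone acetyltransferase, differed by -0.82 ± 0.0903 (adjusted p = 0.000898) and Tet2, a DNA demethylase, by -1.20 ± 0.17 (adjusted p = 0.00866), each with opposite calls for the alleles. Xist differed by -1.33 ± 0.21 (adjusted p = 0.0249), being called higher in 3bp-del homozygotes. Fam193b, Zftraf1, Trim8, Leng8, Mllt6 and Brd3 differed by -0.65 to -0.46. Of 22 alternatives run beside this fit, Xist was called in 11 (highest adjusted p 0.575), Leng8 in 14, Mllt6 in 13 and Brd3 in 9, and the other 6 in 19 to 21. With the length trend removed Mllt6 and Brd3 were not called (adjusted p = 0.0533 and 0.0826). The count of 13 was 27 without 1bp-ins heterozygote replicate 1, 8 without its replicate 3, 7 and 6 without 1bp-ins homozygote replicates 2 and 3, and 5 to 8 without 3bp-del heterozygote replicate 1 or 2 or homozygote replicate 1 or 2.

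Gene length moved with the result. Over the 15933 genes tested, Spearman's rho of log2 fold change with relative gene length (across genes, which are not independent, in the same 8 libraries) was -0.276. With the genes divided by length into 4 equal bins, 478 were higher and 68 lower in the bin of shortest genes, and 168 were higher and 746 lower in that of longest genes. Deviations from the mean of all 8 libraries had rho with length of -0.0592, 0.419 and 0.25 in heterozygotes and -0.0549, -0.415, -0.0783, -0.181 and -0.0741 in homozygotes. These values differed between libraries of the same group. Since the mean spans both groups, they cannot show in which group the trend lies. The same coefficient was -0.28 in the XX 3bp-del comparison and -0.542 in the XY 1bp-ins comparison. With the trend removed the Sertoli count was 16 and the pregranulosa count 13, as before, but 926 genes in place of 1396 were lower, and Kmt2d, Crebbp, Sufu, Insr, Bmpr1a, Bmp5, Leng8, Klhdc7a, Hes5 and Xist lost their calls. Why fold change moved with gene length was not tested.

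**Figure D5:**
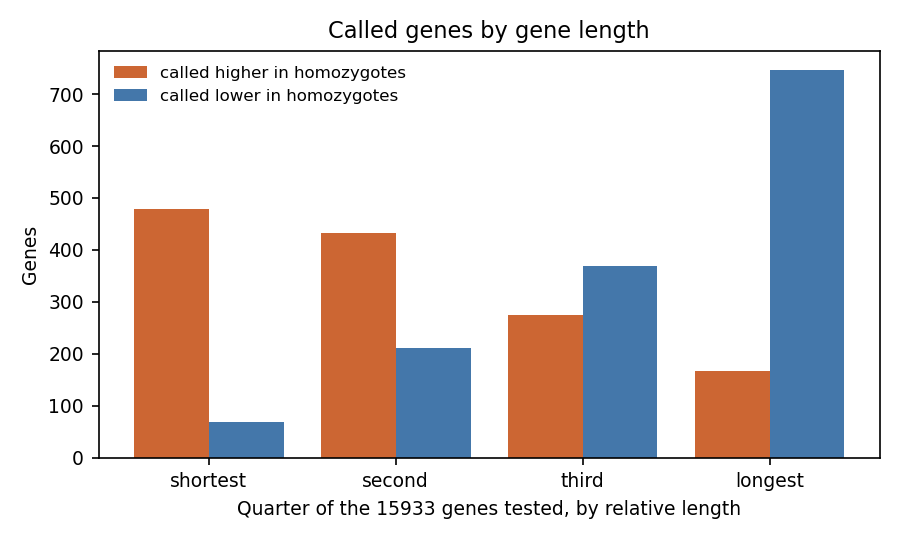
Number of genes called higher (orange) and lower (blue) in homozygotes in each of 4 equal bins of the 15933 genes tested, from the shortest to the longest relative gene length. Calls shift from 478 higher and 68 lower in the bin of shortest genes to 168 higher and 746 lower in the longest.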

How the data were processed

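RNA was measured by poly(A) RNA sequencing of gonads at E12.5, from 140 ng of RNA per library per the labels' protocols. The submitters' processing notes name mm10 as the mouse genome build. The aligner, counting tool, annotation and strand setting were not given in the sources used here. Per gene, the authors deposited a table of expected counts and a table of TPM values, and 1 column of each matched no sample and was not used. Between 8.37% and 8.76% of the expected counts per library were not whole, and they were rounded to whole numbers.

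Groups were taken from the sample titles. Counts of the 3 heterozygotes and 5 homozygotes were fitted with edgeR 4.0.16 (R 4.3.3) by its robust quasi-likelihood F test, with TMM scaling and filterByExpr, which kept 15933 of 33331 genes. Calls were made at an adjusted p under 0.05 (Benjamini-Hochberg over all genes tested). CPM values used the TMM scaling over the 8 libraries, list means used log2 CPM with a prior count of 2, and the SE was computed as the log2 fold change over the root of F. Relative gene length was the ratio of deposited counts to deposited TPM. The interaction fits used 4 groups each, with no library in common between the differences. The code was tested on simulated data. Within a group no libraries were alike within sampling noise (lowest chi-square per degree of freedom 17.3 over 13 pairs).

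Genes named are Sox9, members of 28 gene lists (327 of 330 genes in the table), the 15 called genes without overlap and with a mean log2 CPM of at least 1 that moved most in each direction, the 10 of lowest adjusted p in each direction, and the 10 of lowest adjusted p in each interaction, leaving predicted genes out of the rankings. A few genes are not reported here. Members and lists were chosen with earlier results of these data known. Alternatives were DESeq2 1.42.0, RLE scaling, no filter, all 12 groups in 1 fit, a replicate block, removal of the length trend, a stricter threshold and each library left out.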

Additional observations from a re-analysis of the deposited data

Results flagged for a closer look

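Among the homozygotes 180 genes and list means were examined for 1 replicate far from the other 4, by a test with a critical value of 0.71. For values with a normal spread it marks about 1 in 20 groups by chance. Genes were examined as CPM on a linear scale, and all groups came from the same libraries, so that share need not hold here. The test marked 29, of which 20 had replicate 5 highest and 3 had replicate 5 lowest.

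Replicate 5 was far above the others for the Sertoli genes Amh (889 CPM), Gdnf (36.7 CPM), Ptgds (98.7 CPM), Vnn1 (38.5 CPM), Cldn11 (32.1 CPM), Col9a3 (314 CPM) and Hsd17b1 (11.3 CPM). It was also far above them for the steroid and Leydig genes Cyp17a1 (64.4 CPM), Insl3 (17.5 CPM), Hsd3b1 (76.9 CPM) and Star (34.9 CPM), and for the Hedgehog targets Ptch1 (220 CPM) and Hhip (96.0 CPM). The same was so for Piwil4 (0.872 CPM), Aldh1a1 (618 CPM), Lamb2 (59.4 CPM), Cbln1 (223 CPM) and Ankrd63 (51.9 CPM). Its list means were highest for the NOTCH genes (4.59) and the steroidogenic genes (5.29), on the log2 CPM scale. It was far below the others for Wt1 (298 CPM), Tox2 (10.2 CPM) and the mean of the early gonad genes (6.32).

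Replicate 4 stood apart for Pou5f1 (48.3 CPM, lowest), the general germ cell list mean (4.24, lowest), Xist (41.9 CPM, lowest), Apcdd1 (21.7 CPM, highest) and Pcdh18 (195 CPM, highest), and replicate 1 for Ryr2 (8.17 CPM, highest).

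The difference between homozygotes and heterozygotes itself differed from that of XX 3bp-del for 13 genes and from that of XY 1bp-ins for 977, by the interaction tests of edgeR. In the latter, 16 Sertoli genes and 6 FGF genes were more positive in XX and 8 pregranulosa genes more negative. Against 3bp-del the difference of log2 fold changes was -0.997 for Kmt2d, -0.82 for Crebbp, -0.62 for Fam193b, -0.57 for Zftraf1, -1.20 for Tet2, -0.65 for Trim8, -0.55 for Leng8, -1.33 for Xist, -0.50 for Mllt6 and -0.46 for Brd3. Against XY it was 3.73 for Sox9, 2.03 for Gas7, 3.16 for Tox2, 4.10 for Fstl4, 3.17 for Gldn, 1.75 for Spry4, 2.02 for Pla2g5, 2.95 for Fgf9, 2.07 for Espn and 3.41 for Islr2.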

How the results depend on the processing

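The Sox9 call held under every alternative run, with log2 fold changes of 3.73 to 3.98. With 1 library left out, 645 to 3242 genes were called (290 to 1645 higher, 353 to 1611 lower), the Sertoli count was 11 to 19, the pregranulosa count 8 to 15, and the interactions called 5 to 27 genes against XX 3bp-del and 512 to 1553 against XY. At an adjusted p under 0.01, 546 genes were called, and with a 2-fold minimum 533. With all 12 groups in 1 fit 2260 genes were higher, and with the length trend removed 926 were lower. DESeq2 called 175 genes in the interaction with XX 3bp-del and 1641 in that with XY. The former was 5 with all 12 groups in 1 fit and 20 with the length trend removed. On a log2(TPM + 1) scale the Sertoli list mean differed by 2.40 in place of 3.13. Spearman's rho of fold change with length was -0.347 to -0.179 with 1 library left out, alternatives chosen after seeing the data. The cause of these changes was not tested.

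Replicate numbers run from 1 to 3 in both groups, but same-numbered libraries did not deviate together (r = -0.122, -0.246 and -0.126), and the labels tie a number to no litter or day. A replicate block gave 2142 called genes, of which 1615 were among the 2749, and 2 and 984 in the interactions. Homozygote replicates 4 and 5 have no heterozygote of the same number and stand alone in their blocks. The blocked difference therefore rests on replicates 1 to 3 of each group. Under the block 18 Sertoli and 16 pregranulosa genes were called, and 3 general germ cell and 9 FGF genes were higher and 3 macrophage and 4 retinoic acid genes lower, the calls of Sox10, Prokr2, Ryr2, Lama5, Bmpr1a, Leng8 and Xist were lost, and Hhip turned from 2.71 to -1.86, as it did without homozygote replicate 5 (-1.93 to 3.03 over all 8 libraries left out in turn). Signs of genes not called under either setting were not counted as turned.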
